A study of Mus musculus with 30 samples.

Results

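The genes described here are 10 genes of the heart's basement membrane that were chosen by name: the proteoglycan genes *Hspg2* and *Agrn*, the laminin genes *Lama2*, *Lama4*, *Lama5*, *Lamb1*, *Lamb2* and *Lamc1*, and the nidogen genes *Nid1* and *Nid2*. They are 10 of 49671 genes counted in a peptide study and 10 of 56386 genes in an antibody study of the mouse left ventricle, and all 10 passed the filter on low counts in both. All animals were male wild-type C57BL6J mice. In the peptide study, 7 mice received recombinant human Aβ42, an amyloid beta peptide, and 7 received ScrAβ42, a control peptide with the scrambled sequence, by daily intraperitoneal injection for 4 weeks, beginning at 12 weeks of age in the labels and at 10 to 12 weeks in the methods. The daily dose is 1 mg in the labels and 1 µg elsewhere in the sources, and this was not resolved. In the antibody study, 8 mice received 3D6, an antibody that binds amyloid beta, and 8 received an IgG2a control antibody, at 0.75 mg per kg injected weekly for 4 months. The labels do not give that length, and the timetable in the methods is shorter. These mice were 12 weeks old at baseline, and both antibody groups ate a high-fat diet according to the methods, whereas the deposited design text has both groups given Aβ42 as well. Each heart gave 1 library of total RNA from whole left ventricle, so the values are of tissue and not of sorted cells.

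The basement membrane is a thin sheet of matrix that surrounds each cardiomyocyte and underlies the endothelium of each vessel. Laminins are its scaffold, each a trimer of an α, a β and a γ chain, and cells hold the laminin sheet through integrins and dystroglycan. Nidogens join laminin to the type IV collagen network, and the heparan sulfate proteoglycans perlecan (encoded by *Hspg2*) and agrin (encoded by *Agrn*) bind laminin, dystroglycan and growth factors.

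Promoter sequences are shown for *Hspg2*, the member with the smallest p in the peptide study, and for *Agrn* and *Lama2*. Over all 16 antibody hearts *Agrn* and *Lama2* ran in opposite directions (Pearson's r = -0.69 with group means subtracted). That value includes the difference between the sets of mouse numbers described below, within which r was -0.055 and -0.38. The sequences are RefSeq's on GRCm38.p6, from 250 bases before to 50 bases after a transcription start, written 5′ to 3′ on the gene's strand, and an entry was found for 7 of the 10 genes. Capitals mark the letters GGGCGG or CCGCCC, the GC box motif on either strand, with overlapping copies counted separately.
Hspg2, chr4:137468553-137468852, plus strand: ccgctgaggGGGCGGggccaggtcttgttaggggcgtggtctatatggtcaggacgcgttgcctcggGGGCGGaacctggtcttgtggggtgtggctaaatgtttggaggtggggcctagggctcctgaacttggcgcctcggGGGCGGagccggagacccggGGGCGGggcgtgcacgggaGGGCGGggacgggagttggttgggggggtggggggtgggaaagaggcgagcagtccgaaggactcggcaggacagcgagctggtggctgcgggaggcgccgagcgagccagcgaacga
Agrn, chr4:156197439-156197738, minus strand: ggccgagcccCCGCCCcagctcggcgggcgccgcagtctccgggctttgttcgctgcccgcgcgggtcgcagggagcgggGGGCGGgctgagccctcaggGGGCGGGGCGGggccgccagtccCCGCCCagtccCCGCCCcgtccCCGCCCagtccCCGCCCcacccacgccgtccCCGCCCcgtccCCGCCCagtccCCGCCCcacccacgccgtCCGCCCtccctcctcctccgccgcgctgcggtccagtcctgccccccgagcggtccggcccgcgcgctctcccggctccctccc
Lama2, chr10:27616893-27617192, minus strand: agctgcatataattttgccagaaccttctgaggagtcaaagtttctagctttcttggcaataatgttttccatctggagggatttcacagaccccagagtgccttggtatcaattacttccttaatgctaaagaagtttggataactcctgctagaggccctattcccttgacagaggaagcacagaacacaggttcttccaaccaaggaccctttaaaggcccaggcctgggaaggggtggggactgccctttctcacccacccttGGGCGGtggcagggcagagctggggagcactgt

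The *Hspg2* window was 70.3% G and C, with 27 CG dinucleotides and 5 copies of the motif. *Agrn* has entries for 2 starts. The window shown was 83.3% G and C with 42 CG dinucleotides and 12 copies of the motif, and the other (chr4:156186210-156186509) was 61.3% G and C with 11 CG dinucleotides and 2 copies. The *Lama2* window was 50.3% G and C with 1 CG dinucleotide and 1 copy of the motif. It lies inside the annotated gene, whose 5′ end is at chr10:27619758. The windows shown for *Hspg2* and *Agrn* hold the annotated 5′ ends of their genes, so the positions are not alike. Across 32851 promoters of this length, the median was 52.7% G and C with 7 CG dinucleotides, and 35.7% held the motif. The motif was present in 6 of the 7 genes with an entry and absent from the *Lamb2* window (chr9:108479612-108479911), which was 44.0% G and C. These matches are descriptions of sequence and do not show binding.

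The total count per heart was 4478991 to 6015767 for the peptide hearts and 6397192 to 8310478 for the antibody hearts. Expression is given as CPM, counts scaled to library size by TMM normalisation, and groups were compared with edgeR's quasi-likelihood test over every gene whose counts averaged 10 or more per heart. All 8 listed markers of ventricular cardiomyocytes were detected, at a summed level of 42550.3 to 90259 CPM (peptide hearts) and 47764 to 59931 CPM (antibody hearts). Their presence does not show that a sample was free of atrial tissue. Genes of the mitochondrial genome took 12.9% to 22.2% of the counts of peptide hearts and 25.9% to 37.8% of those of antibody hearts. Markers of atrial muscle had a median summed level of 1158 CPM (12.4 to 8417) with Aβ42 and 10.5 CPM (3.82 to 3665) with ScrAβ42. For the antibody hearts the medians were 98.3 CPM (0.799 to 662) with 3D6 and 2.57 CPM (0.821 to 2775) with the control antibody, with overlapping ranges. The studies were normalised separately, and no test was made of levels across them.

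**Figure D1:**
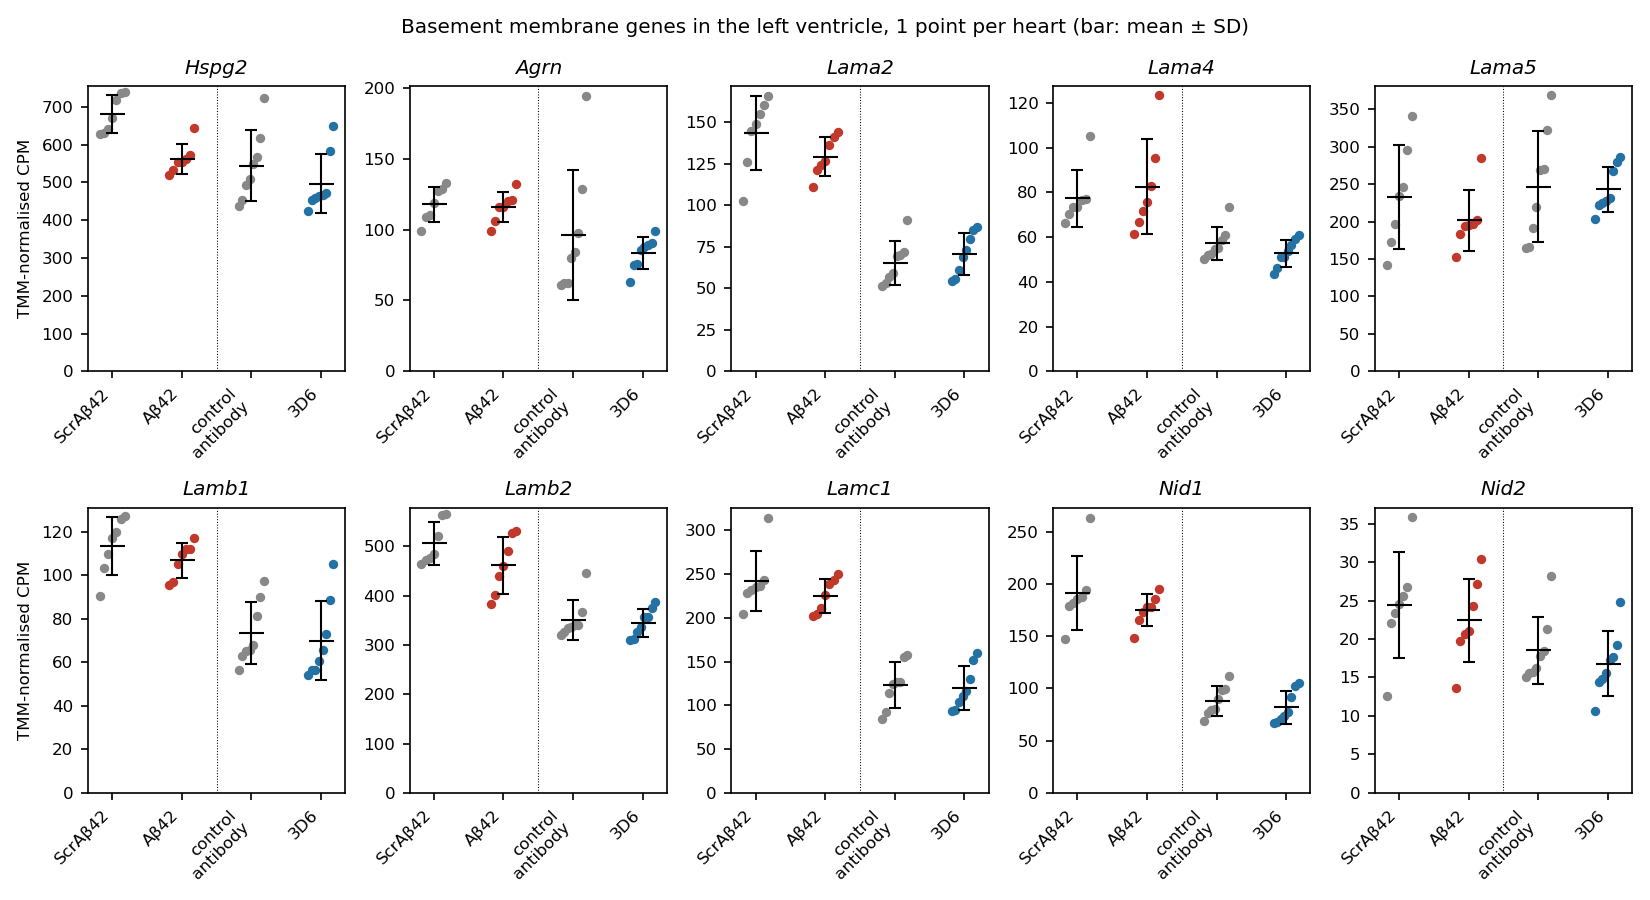
Level of each basement membrane gene in each heart, in TMM-normalised CPM on a linear axis from 0, with 1 point per heart, the mean as a horizontal bar and the SD as a vertical bar. The dotted line separates the peptide study (7 and 7 hearts) from the antibody study (8 and 8 hearts). *Hspg2* is the gene with the least overlap between groups, with 6 of 7 Aβ42 hearts below every ScrAβ42 heart.

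*Hspg2* (chr4:137468769-137570630, plus strand) was lower in hearts given Aβ42. Its level was 521 CPM at the lowest, 555 at the median and 645 at the highest with Aβ42, against 628, 670.1 and 739.5 CPM with ScrAβ42. Of the Aβ42 hearts, 6 of 7 lay below every ScrAβ42 heart and 7 of 7 lay below the ScrAβ42 median, and only the heart labelled Abeta42_3452 fell within the ScrAβ42 range. The log2 fold change was -0.27 (SE 0.076, unadjusted p = 0.00237, adjusted p = 0.693 in edgeR). The mean was 563 ± 39.9 CPM (SD, n = 7) with Aβ42 and 681 ± 49.8 CPM (SD, n = 7) with ScrAβ42. With DESeq2 the same difference was -0.28 with an adjusted p of 0.00892, and over all alternatives the adjusted p ranged from 0.00892 to 0.959. The atrial marker score ran against *Hspg2* within groups (Pearson's r = -0.69, 14 hearts), and the log2 fold change was -0.19 once that score entered as a covariate (edgeR adjusted p = 0.617). The part of atrial tissue in the difference was not tested further, and in bulk tissue fewer cells of a type and less RNA per cell cannot be told apart.

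With 3D6, the *Hspg2* groups overlapped. The gene was at 425, 465 and 651 CPM (lowest, median, highest) with 3D6, against 439, 529 and 723 CPM with the control antibody. Of the 3D6 hearts, 2 of 8 exceeded the control median. The log2 fold change was -0.13 (SE 0.12, edgeR adjusted p = 0.949), and it ranged from -0.19 to -0.057 when each heart was left out in turn.

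*Agrn* (chr4:156165290-156197488, minus strand) encodes agrin, which links laminin to dystroglycan. In the peptide study its level was 99.0, 116 and 132 CPM (lowest, median, highest) with Aβ42 and 99.0, 119 and 133 CPM with ScrAβ42. The ranges were almost the same, and the log2 fold change was -0.025 (SE 0.080). The antibody groups had levels of 62.9, 86.8 and 99.0 CPM with 3D6 and 60.8, 81.8 and 194 CPM with the control antibody. The control group was the more variable, at 96.3 ± 45.7 CPM (SD, n = 8) against 83.3 ± 11.3 CPM (SD, n = 8) with 3D6, and its highest values came from mouse 22 (194 CPM) and mouse 18 (129 CPM). The log2 fold change of -0.21 (SE 0.21) became 0.020 without mouse 22, so its sign rested on that heart.

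*Lama2* (chr10:26980036-27619758, minus strand) encodes the α2 chain, the main α chain of muscle laminin. Its level was 111, 127 and 144 CPM (lowest, median, highest) with Aβ42 and 103, 149 and 166 CPM with ScrAβ42. All 7 Aβ42 hearts lay below the ScrAβ42 median, but 0 lay below every ScrAβ42 heart. Its log2 fold change was -0.15 (SE 0.098) in the peptide study. The antibody groups had levels of 54.5, 71.2 and 87 CPM with 3D6, against 51.2, 64.4 and 91.2 CPM with the control antibody. *Lama2* was the only member with a positive log2 fold change in the antibody study, at 0.11 (SE 0.13), and with the percent of mitochondrial counts as a covariate this was -0.0081.

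*Lama4* (chr10:38965515-39110188, plus strand) encodes the α4 chain, found in the laminin of vessel walls. Its level was 61.5, 75.4 and 123 CPM (lowest, median, highest) with Aβ42 and 66.2, 73.6 and 105 CPM with ScrAβ42. Each group had 1 heart well above its others, Abeta42_3457 (the animal as labelled) and ScrAbeta42_3448. It was the only member with a positive log2 fold change in the peptide study, at 0.091 (SE 0.14), and the value was -0.036 without Abeta42_3457 and -0.18 with the atrial score as a covariate. With 3D6 its level was 43.6, 52.4 and 61.1 CPM, against 50.1, 54.7 and 73.5 CPM with the control antibody, with a log2 fold change of -0.12 (SE 0.093).

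*Lama5* (chr2:180176373-180225859, minus strand) encodes the α5 chain, a broadly expressed chain of vessel laminin. Its level was 153, 196 and 285 CPM (lowest, median, highest) with Aβ42 and 142, 233 and 341 CPM with ScrAβ42. The highest and lowest hearts of the peptide study were both ScrAβ42 hearts, and 1 of 7 Aβ42 hearts exceeded the ScrAβ42 median. The log2 fold change of -0.21 (SE 0.18) became 0.025 with the atrial score as a covariate. Levels with 3D6 were 203, 230.1 and 286 CPM, against 165, 244 and 369.7 CPM with the control antibody. All 8 values with 3D6 lay inside the control range, and the log2 fold change was -0.021 (SE 0.15).

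*Lamb1* (chr12:31265234-31329644, plus strand) encodes the β1 chain. Its level was 95.5, 109.6 and 117 CPM (lowest, median, highest) with Aβ42 and 90.4, 117 and 127 CPM with ScrAβ42. All 7 Aβ42 hearts lay below the ScrAβ42 median and within the ScrAβ42 range, with a log2 fold change of -0.085 (SE 0.080). With 3D6 its level was 54.2, 63.0 and 105 CPM, against 56.6, 66.9 and 97.1 CPM with the control antibody, with a log2 fold change of -0.068 (SE 0.15).

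*Lamb2* (chr9:108479736-108490530, plus strand) encodes the β2 chain, which is prominent in muscle and vessel basement membranes. Its level was 383, 459.8 and 531 CPM (lowest, median, highest) with Aβ42 and 463, 484 and 566 CPM with ScrAβ42. Of the Aβ42 hearts, 4 of 7 lay below every ScrAβ42 heart and the other 3 lay above the ScrAβ42 median, and 0 lay above every ScrAβ42 heart, with a log2 fold change of -0.13 (SE 0.092). Levels with 3D6 were 310.3, 346 and 388 CPM, against 319, 339 and 446 CPM with the control antibody. Mouse 22 again gave the highest control value, and the log2 fold change was -0.025 (SE 0.087) with that heart and 0.037 without it.

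*Lamc1* (chr1:153218922-153332786, minus strand) encodes the γ1 chain, the partner of nearly every laminin of the heart. Its level was 202, 226 and 250.4 CPM (lowest, median, highest) with Aβ42 and 205, 236 and 315 CPM with ScrAβ42. The log2 fold change was -0.11 (SE 0.090), and -0.032 without ScrAbeta42_3448, the highest ScrAβ42 heart. The antibody groups had 93.1, 114 and 160.2 CPM with 3D6, against 84.7, 125 and 158 CPM with the control antibody, with a log2 fold change of -0.030 (SE 0.14). Mouse 22, the highest control heart for *Agrn*, *Lama5*, *Lamb2* and *Hspg2*, was the lowest for *Lamc1*.

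*Nid1* (chr13:13437551-13512269, plus strand) encodes nidogen-1. Its level was 148, 178 and 196 CPM (lowest, median, highest) with Aβ42 and 147, 186 and 263 CPM with ScrAβ42. The log2 fold change of -0.13 (SE 0.10) was -0.035 without ScrAbeta42_3448. With 3D6 its level was 66.8, 75.4 and 106 CPM, against 68.4, 85.1 and 112 CPM with the control antibody, with a log2 fold change of -0.10 (SE 0.12). *Nid2* (chr14:19751265-19811787, plus strand) encodes nidogen-2 and was the least counted member. Its level was 13.7, 21.1 and 30.4 CPM with Aβ42, 12.6, 24.6 and 35.8 CPM with ScrAβ42, 10.6, 16.4 and 24.9 CPM with 3D6, and 15.1, 17 and 28.1 CPM with the control antibody. All groups overlapped widely, and the log2 fold changes were -0.12 (SE 0.19) with Aβ42 and -0.14 (SE 0.15) with 3D6.

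Of the 10 members, 0 passed an adjusted p under 0.05 in edgeR in either study, where 0 of 11985 genes (0%) and 0 of 12274 genes (0%) passed. At an unadjusted p under 0.05, *Hspg2* alone passed in the peptide study (1 of 10 members, against 748 genes or 6.24% of all) and 0 of 10 passed in the antibody study (437 genes or 3.56% of all). DESeq2 called 1 member, *Hspg2*, among 12 genes (0.127% of 9429) with Aβ42 and 0 with 3D6, and limma-voom called 0 in both. The direction was lower for 9 of 10 members in each study, against 49.5% of all genes with Aβ42 and 52.6% with 3D6. The median log2 fold change of the members was -0.12 with Aβ42 and -0.084 with 3D6, and that of all genes was 0.0015 and -0.0098. *Lama4* was the exception in the peptide study and *Lama2* in the antibody study, so 8 of 10 members were lower in both, as were 24.3% of the 11361 genes tested in both. Over the alternatives the number lower ranged from 8 to 9 with Aβ42 and from 6 to 9 with 3D6, with 6 both when the GC index described below was a covariate and without mouse 22. The members were chosen with these comparisons known, so the counts describe the members and test nothing.

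**Figure D2:**
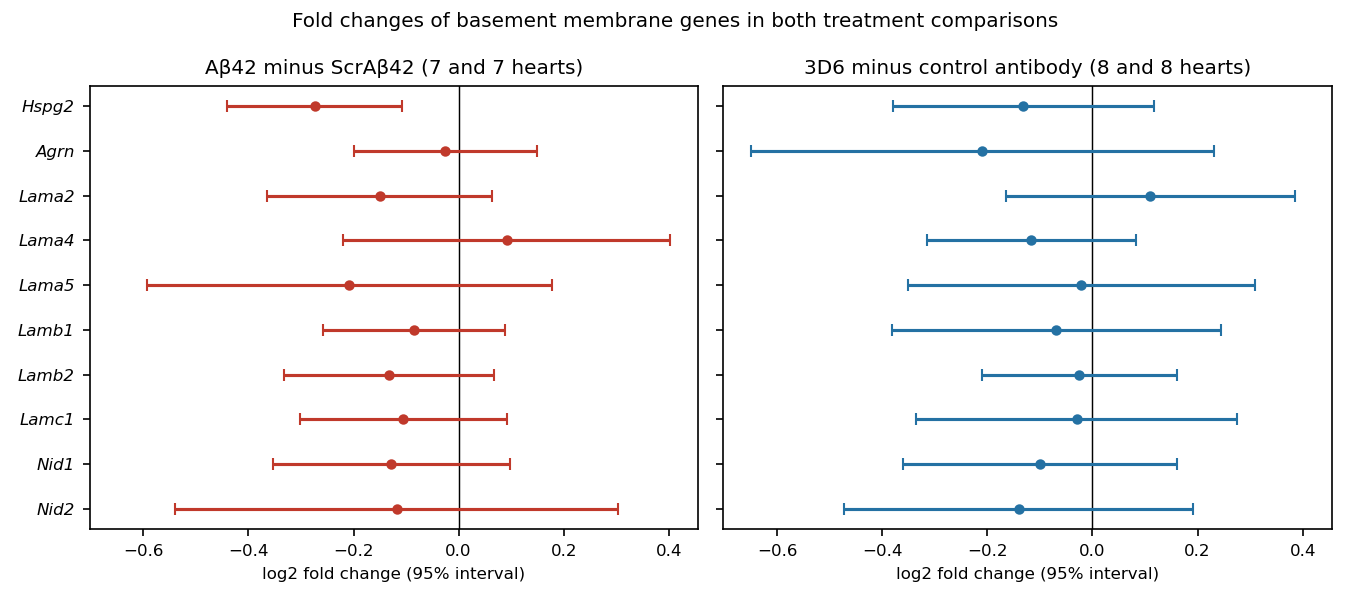
Log2 fold change (x axis) of each basement membrane gene (rows) with its 95% interval from edgeR, Aβ42 minus ScrAβ42 on the left and 3D6 minus control antibody on the right. The intervals of 9 members with Aβ42 and 10 with 3D6 include 0, and that of *Hspg2* with Aβ42 runs from -0.44 to -0.11.

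Levels of different genes were compared per kb of their longest coding transcript. *Lamb2* was the highest member in every group, at 82.0 ± 10.3 CPM per kb (SD, n = 7) with Aβ42, 89.9 ± 7.74 with ScrAβ42, 61.3 ± 5.08 (SD, n = 8) with 3D6 and 62.4 ± 7.20 with the control antibody. *Hspg2* was the second, at 39.7 ± 2.82, 48.0 ± 3.51, 35.0 ± 5.49 and 38.4 ± 6.60 CPM per kb in the same order, and *Nid2* was the lowest, at 4.6 ± 1.11, 5.00 ± 1.41, 3.45 ± 0.855 and 3.8 ± 0.90 CPM per kb. The ranges of *Lamb2*, *Hspg2* and *Nid2* did not overlap those of their neighbours in the Aβ42 group. In that group *Lamc1* (29.5 ± 2.59 CPM per kb) and *Nid1* (28.7 ± 2.48) came next and overlapped each other. *Lamb1* (18.5 ± 1.40), *Lama5* (17.7 ± 3.54), *Agrn* (16 ± 1.47), *Lama4* (13.6 ± 3.51) and *Lama2* (13.5 ± 1.22) followed, each within the spread of its neighbours. Among the antibody hearts *Lama5* ranked above *Lamc1*, at 21.3 ± 2.68 against 15.8 ± 3.31 CPM per kb with 3D6. By this length *Lama4* (8.72 ± 1.00) and *Lama2* (7.35 ± 1.33) stayed below the other laminin chains. The order of *Lama2* and *Lama4* depended on the length used, as the shares below show.

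A laminin trimer takes 1 chain of each kind, so the chains were also expressed as a share of the counts per kb of exonic length of their kind. *Lama5* gave 54.2% ± 6.68 (SD, n = 7) of α chain counts with Aβ42 and 56.4% ± 8.66 with ScrAβ42. *Lama2* gave 24.6% ± 3.00 and 25.2% ± 5.55, and *Lama4* gave 21.2% ± 5.71 and 18.4% ± 4.15. The *Lama5* share in the antibody study was 71.0% ± 2.99 (SD, n = 8) with 3D6 and 70.0% ± 7.80 with the control antibody. *Lamb2* gave most β chain counts in every heart, at 87.5% ± 1.5 with Aβ42, 87.9% ± 1.26 with ScrAβ42, 89.0% ± 2.02 with 3D6 and 88.5% ± 2.72 with the control antibody. Of the nidogen counts, *Nid1* gave 85.5% ± 2.22 with Aβ42, 85.6% ± 2.07 with ScrAβ42, 78.5% ± 3.28 with 3D6 and 77.9% ± 3.54 with the control antibody. Within each study every difference in share between groups was smaller than the SD over hearts. The α chain shares depended on the length used, since with the longest coding transcript in place of exonic length *Lama5* gave 39.5% with Aβ42 and 57.0% with 3D6, and with each transcript's own length, which only the antibody table allows, 51.4% with 3D6. With each transcript's own length *Lama2* gave 28.8% with 3D6 and 28.6% with the control antibody. These shares were above those of *Lama4*, at 19.8% and 22.0%.

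**Figure D3:**
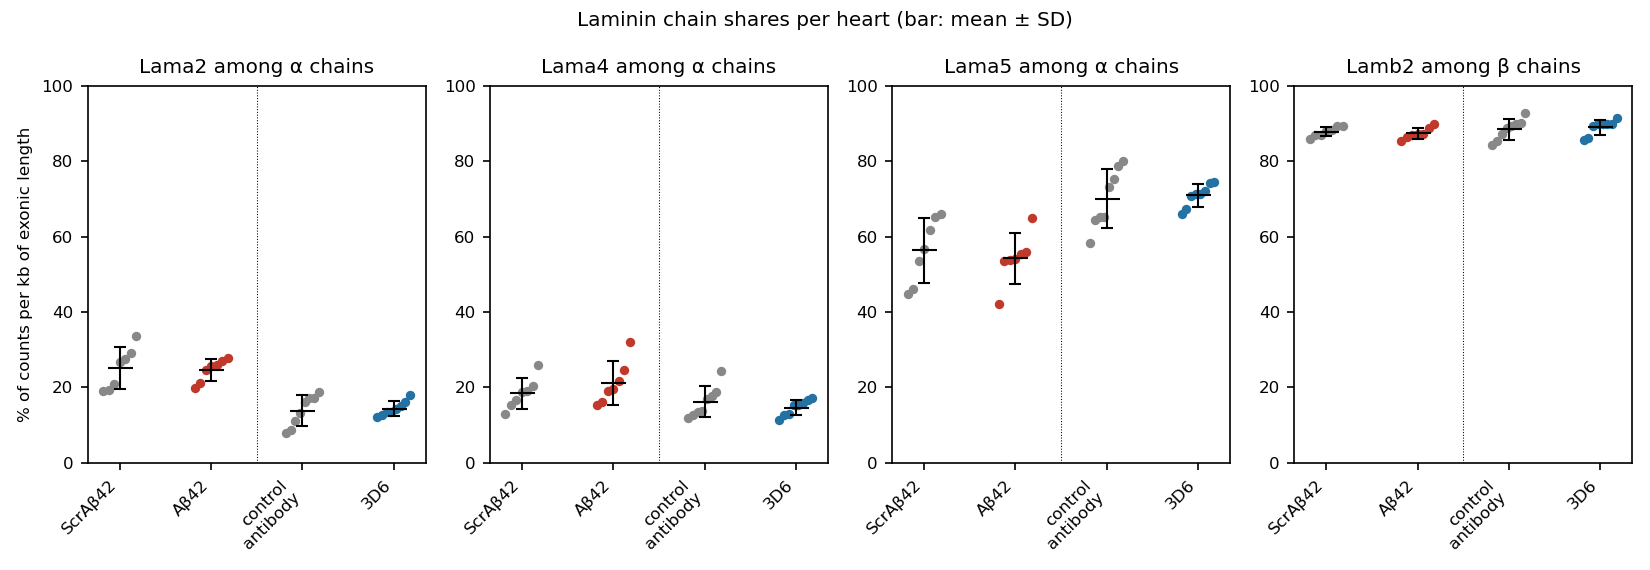
Share of the α chain counts per kb taken by *Lama2*, *Lama4* and *Lama5*, and of the β chain counts per kb taken by *Lamb2*, in percent, with 1 point per heart and bars for the mean and SD. *Lamb2* takes between 84.3% and 92.8% of β chain counts in every heart, and within each study the groups overlap in all 4 panels.

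The antibody table gives estimated counts per transcript, and these were expressed as shares of the gene's counts. *Hspg2* was split between Hspg2-201 (14187 bases, 54.4% ± 6.63 with 3D6 and 48.9% ± 4.93 with the control antibody) and Hspg2-203 (14176 bases, 40.3% ± 7.27 and 45.2% ± 5.47), each SD over n = 8 hearts. Both have 97 exons and nearly the same length. *Lama2* was split between the full-length Lama2-201 (9614 bases, 49.6% ± 16 with 3D6 and 44.6% ± 13.4 with the control antibody) and the shorter coding Lama2-208 (3383 bases, 47.2% ± 15.5 and 52.2% ± 12.1). The *Lama2* split varied from heart to heart, and Lama2-201 spanned 35.5% to 71.6% with 3D6. *Agrn* was counted mainly as Agrn-206 (53.6% ± 4.96 with 3D6 and 49.0% ± 14.3 with the control antibody) and Agrn-203 (28.2% ± 6.68 and 24.6% ± 10.6). Agrn-202 was at 0 in all 8 hearts given 3D6 and at 0% to 26.2% in control hearts. *Lama4*, *Lama5*, *Lamb1*, *Lamb2* and *Nid1* were each counted mainly as a single transcript. The group mean share was between 98.7% and 99.5% for Lama4-201 and Lama5-201 and between 96.4% and 98.0% for Lamb1-201, Lamb2-201 and Nid1-201, and the lowest share in a single heart was 92.6% (Lamb1-201). Nid2-201 held 87.1% ± 20.2 with 3D6 and 93.1% ± 18.5 with the control antibody, with a lowest heart of 42.2%. Lamc1-201 (89.2% ± 9.16 with 3D6, 84.3% ± 12.9 with the control antibody) shared *Lamc1* with Lamc1-204, a coding transcript of 1447 bases. In none of the pairs given here did the group means differ by more than the larger SD.

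Variation from heart to heart within groups, which the treatment comparisons do not use, was then examined. For each pair of members, Pearson's r and Spearman's rho of log2 CPM were computed after the group mean was subtracted, with permutation tests over 14 or 16 hearts and Benjamini-Hochberg adjustment over 45 pairs. Among the peptide hearts 6 of 45 pairs passed an adjusted p under 0.05 for Pearson's r, all positive and all among *Lama4*, *Lamc1*, *Nid1* and *Nid2*, and 2 of these passed for both measures. *Lamc1* and *Nid2* gave r = 0.87 and rho = 0.92 (adjusted permutation p = 0.00787 and 0.00315), and r = 0.85 without the 2 hearts farthest from the median. *Lama4* and *Nid2* gave r = 0.79 and rho = 0.84 (adjusted permutation p = 0.0154 and 0.0171), and r = 0.73 without the 2 farthest hearts. For *Lamc1* and *Nid1*, r = 0.90 fell to 0.69 without the 2 farthest hearts, and rho = 0.71 had an adjusted permutation p of 0.0867. Abeta42_3457 and ScrAbeta42_3448, the highest of their groups for *Lama4*, *Lamc1*, *Nid1* and *Nid2*, also had the lowest percents of mitochondrial counts in the study, at 12.9% and 13.8%.

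The antibody hearts fell into sets by mouse number, a split noticed after the values were seen. Mice 3 to 12 (6 hearts, 3 of each group) and mice 15 to 24 (10 hearts, 5 of each group) did not overlap for *Agrn* (60.8 to 76.1 against 79.7 to 194 CPM) or *Lamb1* (72.8 to 105 against 54.2 to 68.1 CPM). They overlapped at the edges for *Lamc1* (127 to 160.2 against 84.7 to 127 CPM), *Nid1* (90.0 to 112 against 66.8 to 98.1 CPM) and *Lama2* (70.4 to 91.2 against 51.2 to 73.4 CPM). The labels do not say that the numbers mark a batch, and the treatment groups were balanced over both sets. Correlations over the 16 hearts therefore hold the difference between the sets as well as the variation within them.

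Over all 16 antibody hearts 13 of 45 pairs passed for Pearson's r, 9 positive and 4 negative, and 11 of these passed for both measures. The strongest were *Lamc1* with *Nid1* (r = 0.91, rho = 0.91, adjusted permutation p = 0.00045 and 0.000675) and *Lamb1* with *Nid1* (r = 0.91, rho = 0.91, the same adjusted p values). *Lamb1* with *Lamc1* gave r = 0.89 and rho = 0.87 (adjusted permutation p = 0.00045 and 0.0015). Without the 2 farthest hearts these 3 values of r were 0.87, 0.93 and 0.85. The 4 negative pairs were *Agrn* with *Lamc1* (r = -0.77, rho = -0.74), *Lama2* (r = -0.69, rho = -0.71), *Nid1* (r = -0.69, rho = -0.67) and *Lamb1* (r = -0.63, rho = -0.65), with adjusted permutation p between 0.00342 and 0.0214. With the means of group and mouse-number set subtracted and hearts permuted within both, 0 of 45 pairs passed for either measure, and the median r went from 0.33 to 0.14. *Lamc1* with *Nid1*, *Lamb1* with *Nid1* and *Lamb1* with *Lamc1* then gave r = 0.73, 0.63 and 0.65 (rho = 0.65, 0.67 and 0.65, adjusted permutation p between 0.0757 and 0.16). Within the sets, these 3 pairs were positive in both, at 0.83, 0.59 and 0.89 in mice 3 to 12 and at 0.69, 0.76 and 0.58 in mice 15 to 24. The pairs of *Agrn* gave r = -0.57 with *Lamc1*, -0.33 with *Lama2*, -0.45 with *Nid1* and -0.12 with *Lamb1* (rho from -0.35 to 0.19, adjusted permutation p at least 0.389). In mice 3 to 12 *Agrn* had r = 0.74 with *Lamc1*, 0.67 with *Nid1* and 0.81 with *Lamb1*, and in mice 15 to 24 -0.75, -0.64 and -0.44, so for these 3 the negative sign did not hold in both sets. *Agrn* with *Lama2* was at -0.055 and -0.38. The largest value after subtraction was that of *Hspg2* with *Agrn* (r = 0.83, rho = 0.83, adjusted permutation p = 0.0711 and 0.119), at 0.65 without the 2 farthest hearts, 0.83 and 0.93 within the sets and 0.42 over all 16 hearts before it.

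Library composition moved with these patterns in the antibody study. A GC index was computed for each heart as the mean log2 CPM of the 10% of genes with the most G and C minus that of the 10% with the least. The members' longest coding transcripts run from 47.7% G and C in *Lama2*, 50% in *Lama4* and 50.4% in *Nid1* to 57.4% in *Agrn*, 58.8% in *Lamb2*, 59.9% in *Lama5* and 60.9% in *Hspg2*. The index did not overlap between the mouse-number sets, at 0.034 to 0.32 in mice 3 to 12 and 0.39 to 0.80 in mice 15 to 24, and mitochondrial percents were 32.8% to 37.8% and 25.9% to 33.7%. Over the 16 hearts the index gave r = 0.87 with *Agrn*, -0.86 with *Lama2*, -0.85 with *Lamc1*, -0.82 with *Lamb1* and -0.80 with *Nid1* (adjusted permutation p between 0.0011 and 0.00418 over 110 pairs of member and score). Spearman's rho for these 5 genes was 0.87, -0.87, -0.86, -0.83 and -0.83 (adjusted permutation p at most 0.00503), and without the 2 farthest hearts r was 0.81, -0.83, -0.79, -0.80 and -0.83. The other 5 members did not pass, with r = 0.45 for *Lama5*, 0.35 for *Lamb2*, 0.086 for *Hspg2*, -0.40 for *Lama4* and -0.18 for *Nid2* (adjusted permutation p between 0.354 and 0.897). So *Agrn* was the only one of the 4 members richest in G and C that passed over all 16 hearts. With the means of the mouse-number sets subtracted as well, none of the 10 members passed, and the index gave r = 0.76 with *Agrn*, -0.57 with *Lama2*, -0.54 with *Lamc1*, -0.30 with *Lamb1* and -0.39 with *Nid1* (rho = 0.59, -0.59, -0.55, -0.33 and -0.26, adjusted permutation p between 0.217 and 0.686). After that subtraction the other 5 members gave r = 0.68 (*Lamb2*), 0.61 (*Hspg2*), 0.36 (*Lama4*), 0.26 (*Nid2*) and 0.25 (*Lama5*). Their rho was 0.56, 0.53, 0.23, 0.30 and 0.085 (adjusted permutation p between 0.221 and 0.88). Between the sets, mouse number and library composition cannot be told apart. In the peptide study none of the 10 members passed with the index either, at r = -0.24 for *Agrn*, -0.22 for *Lama2*, 0.55 for *Lamc1*, 0.22 for *Lamb1* and 0.28 for *Nid1* (rho = -0.16, -0.22, 0.56, 0.29 and 0.19, adjusted permutation p between 0.202 and 0.73). The index and the percent of mitochondrial counts were themselves related across hearts (r = -0.94, rho = -0.87, adjusted permutation p = 1e-04 and 4e-04 over 10 scores, the first the smallest that these permutations can give, and r = -0.87 without the 2 farthest hearts), and r was -0.86 with rho -0.79 (adjusted permutation p = 0.0083 and 0.0489) with the set means subtracted. Mouse 22 had the highest index (0.80) and the lowest mitochondrial percent (25.9%). The mitochondrial percent itself gave r = -0.89 with *Agrn*, 0.78 with *Lama2*, 0.71 with *Lamc1*, 0.67 with *Nid1* and 0.65 with *Lamb1* (rho = -0.85, 0.78, 0.71, 0.75 and 0.66, adjusted permutation p between 0.0011 and 0.0395). With the index regressed out, an alternative chosen after the data were seen, the 4 negative values of *Agrn* became -0.11 with *Lamc1*, 0.27 with *Lama2*, 0.038 with *Nid1* and 0.31 with *Lamb1*. Of the positive pairs that had passed, those of *Lama2* went from 0.81 to 0.35 with *Lamb1*, from 0.78 to 0.18 with *Lamc1* and from 0.78 to 0.31 with *Nid1*. The 3 strongest were at 0.71 for *Lamc1* with *Nid1*, 0.73 for *Lamb1* with *Nid1* and 0.65 for *Lamb1* with *Lamc1*. The other 3 that had passed, *Agrn* with *Lama5*, *Lama5* with *Lamb2* and *Lama4* with *Lamb1*, were at 0.78, 0.60 and 0.56. Pairs that had not passed also moved, *Hspg2* with *Lamb1* from 0.39 to 0.80 (the highest value then), *Hspg2* with *Agrn* from 0.42 to 0.70 and *Lama2* with *Lamb2* from 0.014 to 0.67. The median of the 24 pairs between *Hspg2*, *Agrn*, *Lama5* and *Lamb2* and the other 6 went from -0.20 to 0.21.

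Marker genes of heart cell types also varied with the members. In the peptide study the score of 8 fibroblast markers rose with *Lama4* (r = 0.93, rho = 0.83, adjusted permutation p = 0.00347 and 0.0145 over 130 pairs), with *Lamc1* (r = 0.91, rho = 0.87, 0.00347 and 0.0114) and with *Nid2* (r = 0.85, rho = 0.91, 0.0182 and 0.0114). Without the 2 farthest hearts these values of r were 0.80, 0.83 and 0.82. The score of 8 ventricular cardiomyocyte markers ran the other way, with r = -0.93 for *Lama4*, -0.80 for *Lamc1* and -0.81 for *Nid2*, and rho of -0.76, -0.82 and -0.79 (adjusted permutation p at most 0.0321). *Nid1* passed with the fibroblast score for Pearson's r (0.82, adjusted permutation p = 0.0162) and not for rho (0.61, adjusted permutation p = 0.154). The score of 6 macrophage markers also varied with *Lamc1* (r = 0.90, rho = 0.84, adjusted permutation p = 0.00442 and 0.0114), and by 1 of the measures each with *Lama4* (r = 0.73, adjusted permutation p = 0.0451) and *Nid2* (rho = 0.77, adjusted permutation p = 0.0321). Summed macrophage markers ranged from 130 to 233 CPM with Aβ42 and from 119 to 326 CPM with ScrAβ42, with none at 0. Summed fibroblast markers ranged from 743 to 2053 CPM with Aβ42 and from 735 to 2237 CPM with ScrAβ42. In the antibody study the fibroblast score gave r between 0.33 and 0.44 with *Lama4*, *Lamc1*, *Nid1* and *Nid2*, and none of the 4 passed (adjusted permutation p between 0.272 and 0.451). With the mouse-number set means subtracted as well, r was 0.48, 0.60, 0.62 and 0.48 in that order, and again none passed. Their rho was then 0.47, 0.65, 0.68 and 0.44 (adjusted permutation p between 0.174 and 0.507). The difference between the studies was not tested. Other scores did pass there for both measures. The macrophage score ran against *Lama2* (r = -0.82, rho = -0.81), *Nid1* (-0.75, -0.76) and *Lamb1* (-0.71, -0.77), with adjusted permutation p between 0.00418 and 0.0227. The Schwann cell score ran with *Agrn* (r = 0.85, rho = 0.76) and against *Lama2* (-0.71, -0.65), *Lamc1* (-0.70, -0.69) and *Nid1* (-0.62, -0.74), with adjusted permutation p between 0.00418 and 0.0343, and the red cell score ran with *Agrn* (r = 0.74, rho = 0.74, adjusted permutation p = 0.00418 and 0.0102). Their summed levels overlapped between the groups, at 65.7 to 116 CPM with 3D6 and 73.3 to 139.9 CPM with the control antibody for the 6 macrophage markers. For Schwann cell markers, of which 4 of 6 passed the filter on low counts, the sums were 9.19 to 13.6 CPM and 6.43 to 21.8 CPM. These 3 scores varied with the GC index of the library as well, with r = 0.83 and rho = 0.76 for Schwann cells, 0.81 and 0.80 for macrophages and 0.73 and 0.69 for red cells (adjusted permutation p between 0.0011 and 0.0131 over 10 scores), and r = 0.61, 0.74 and 0.61 without the 2 farthest hearts. With the mouse-number set means subtracted, none of these 8 pairs of member and score passed, with r from -0.58 (*Lama2*, macrophage) to 0.73 (*Agrn*, Schwann cell) and adjusted permutation p of at least 0.213, and the index passed with the Schwann cell score for Pearson's r alone (0.81, adjusted permutation p = 0.0277, rho = 0.73, adjusted permutation p = 0.0966). The part of these cells, of mouse number or of library composition in the members' variation was not tested.

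*Hspg2* varied with the endothelial markers. In the antibody study the score of 8 endothelial genes gave r = 0.84 and rho = 0.85 with *Hspg2* over 16 hearts (adjusted permutation p = 0.00275 and 0.0044), and r = 0.81 without the 2 farthest hearts. With the mouse-number set means subtracted r was 0.87 and rho 0.81 (adjusted permutation p = 0.0335 and 0.0638), r was 0.76 without the 2 farthest hearts, and within the sets r was 0.88 (6 hearts) and 0.89 (10 hearts). After the same subtraction *Hspg2* gave r = 0.61 with the GC index and -0.69 with the mitochondrial percent. The endothelial score gave r = 0.61 with the index, and none of these passed (rho = 0.53, -0.68 and 0.45, adjusted permutation p between 0.171 and 0.408). *Lama4* with that score gave r = 0.63 and rho = 0.75 over 16 hearts (adjusted permutation p = 0.0628 and 0.0113), and r = 0.67 and rho = 0.83 with the set means subtracted (adjusted permutation p = 0.0335 and 0.0154), with r = 0.78 without the 2 farthest hearts in both cases. In the peptide study *Hspg2* gave r = 0.59 and rho = 0.53 with that score over 14 hearts (adjusted permutation p = 0.168 and 0.248). This r fell to 0.24 without the 2 farthest hearts. *Lama4* had the opposite sign in the peptide study, with r = -0.69 and rho = -0.41 (adjusted permutation p = 0.104 and 0.405), and r = -0.46 without the 2 farthest hearts. There *Hspg2* ran against the adipocyte score (r = -0.76, rho = -0.81, adjusted permutation p = 0.022 and 0.0114). Its r of -0.69 with the atrial score passed for Pearson's r (adjusted permutation p = 0.02) and not for Spearman's rho (-0.64, adjusted permutation p = 0.125). Summed endothelial markers were similar in the peptide groups, with medians of 1003 CPM with Aβ42 and 1026 CPM with ScrAβ42. Of 6 adipocyte markers, 4 passed the filter on low counts. Their summed medians were 5.22 CPM (0.198 to 385) with Aβ42 and 0.874 CPM (0 to 83.9) with ScrAβ42. These ranges overlapped and reached down to 0 or near it, so the adipocyte score rests on low counts in some hearts. For the antibody hearts the endothelial medians were 820 CPM (759 to 929) with 3D6 and 912 CPM (790 to 1162) with the control antibody, with overlapping ranges.

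**Figure D4:**
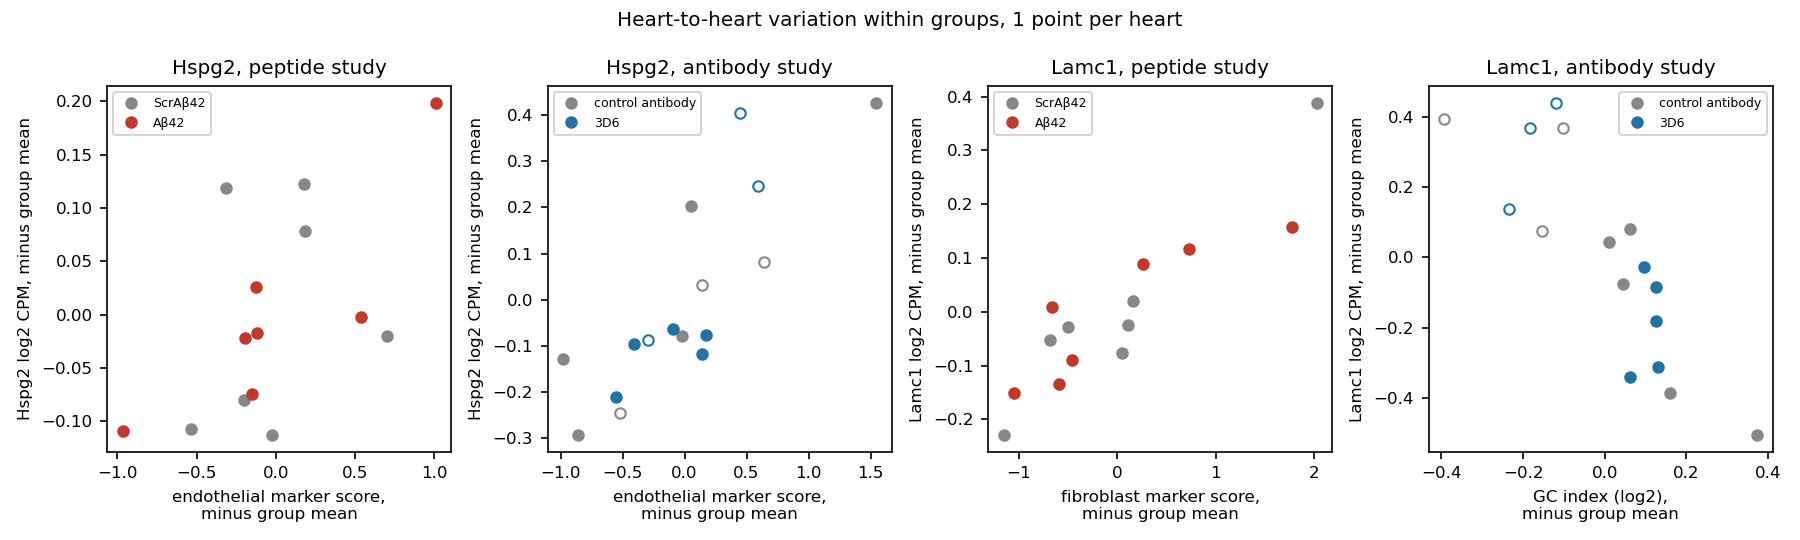
Each point is 1 heart, with its group's mean subtracted on both axes: *Hspg2* (log2 CPM) against the endothelial marker score in both studies, *Lamc1* against the fibroblast marker score in the peptide study, and *Lamc1* against the GC index in the antibody study. Open points are mice 3 to 12 of the antibody study. Pearson's r in the 4 panels is 0.59, 0.84, 0.91 and -0.85, and the last is -0.54 with the mouse-number set means subtracted.

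Genes whose variation over hearts was most like that of a member were ranked over 11361 genes by the smaller of the r values of the 2 studies (14 and 16 hearts). For *Hspg2* the closest was *Cdh5*, the cadherin of endothelial junctions (r = 0.74 and 0.87), followed by *Shank3* (0.73 and 0.75), *Notch3* (0.72 and 0.80), *Plekha6* (0.69 and 0.79) and *Tnik* (0.69 and 0.71). For *Lama4* it was *Kirrel* (0.83 and 0.89), then *Spred1*, *Myh9*, *Col6a3* and *Lima1*. For *Nid1* it was *Add3* (0.89 and 0.86), then *Amotl1*, *Wwtr1*, *App* and *Ski*. For *Lama2* it was *Btbd7* (0.80 and 0.87), then *Dcp2*, *Hipk2*, *Aff4* and *Herc2*. For *Lama5* it was *Lgals4* (0.82 and 0.76), with *Prickle3*, *Tmem82* and *Plekha6* also among its closest. These are descriptions over hearts that share libraries, with no test, the antibody values hold the difference between the mouse-number sets, and *Plekha6* was named for both *Hspg2* and *Lama5*.

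The other genes of the pathway were taken from lists of 72 genes in 7 groups, and 0 passed an adjusted p under 0.05 in edgeR in either study. Of 8 basement membrane collagens, 3 were lower with Aβ42 and 6 with 3D6, with medians of 0.089 and -0.16. *Col4a1* and *Col4a2*, the chains of the common type IV collagen, had log2 fold changes of -0.17 (SE 0.10) and -0.16 (SE 0.083) with Aβ42 and -0.20 (SE 0.14) and -0.12 (SE 0.13) with 3D6. *Col18a1* was at 38.0 ± 60.3 CPM (SD, n = 7) with Aβ42 and 14.6 ± 7.26 CPM with ScrAβ42, a log2 fold change of 1.40 (SE 0.73) with a spread larger than the difference. With 3D6 the *Col18a1* value was -0.21 (SE 0.17). *Col4a6*, a minor type IV collagen chain, had a log2 fold change of 1.93 (SE 0.98) with Aβ42 and 0.0018 (SE 0.30) with 3D6. Its level was 14.6 ± 25.0 CPM (SD, n = 7) with Aβ42 and 3.81 ± 5.44 CPM with ScrAβ42, with an SD above the mean in both.

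Receptors for laminin and agrin were tested for 9 of 11 listed genes, of which 4 were lower in each study. *Dag1*, which encodes dystroglycan, had log2 fold changes of -0.031 (SE 0.079) with Aβ42 and 0.16 (SE 0.24) with 3D6, and *Itgb1*, the common integrin β chain, 0.066 (SE 0.078) and 0.11 (SE 0.15). *Itga7*, the laminin-binding integrin chain of muscle, was at 185 ± 19.8 CPM (SD, n = 7) with Aβ42 and 210.2 ± 27.8 CPM with ScrAβ42, and at 155 ± 20.9 CPM (SD, n = 8) with 3D6 and 138 ± 10.5 CPM with the control antibody. Its log2 fold changes were -0.18 (SE 0.094, edgeR adjusted p = 0.813) and 0.16 (SE 0.091, edgeR adjusted p = 0.949), of opposite sign, and neither passed. *Itga6* had -0.13 (SE 0.11) and -0.21 (SE 0.11).

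Among 7 tested genes of other laminins and netrins, 5 were lower with Aβ42, and *Ntn1*, which encodes netrin-1, had the smallest p (log2 fold change -0.21, SE 0.090, unadjusted p = 0.0327 and adjusted p = 0.777 in edgeR). With 3D6, 3 of 6 were lower, and *Lama3* had the smallest p (-0.46, SE 0.20, unadjusted p = 0.0355 and adjusted p = 0.949 in edgeR), at 2.32 ± 0.582 CPM (SD, n = 8) against 3.20 ± 0.961 CPM. Of 12 genes for matrix assembly, 6 were lower with Aβ42 and 10 with 3D6. *Smoc2*, a matrix protein of basement membranes, was at 50.4 ± 4.93 CPM (SD, n = 7) with Aβ42 and 61.3 ± 7.48 CPM with ScrAβ42 (log2 fold change -0.28, SE 0.085, unadjusted p = 0.00426 and adjusted p = 0.699 in edgeR). *Tinagl1* had -0.046 (SE 0.077) with Aβ42 and -0.23 (SE 0.14) with 3D6.

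Of 10 dystroglycan glycosylation genes, 8 were lower with Aβ42 and 3 with 3D6. *Pomgnt1*, a transferase of dystroglycan's glycans, had log2 fold changes of -0.043 (SE 0.078) and 0.19 (SE 0.10). Of 10 genes of the dystrophin complex, 6 were lower with Aβ42 and 3 with 3D6, and *Sgcb* had -0.10 (SE 0.064) and 0.10 (SE 0.098). *Sgce*, with the smallest p of that list for 3D6, had 0.23 (SE 0.22) and -0.26 (SE 0.14). Of 13 genes for heparan sulfate synthesis, which make the chains carried by perlecan and agrin, 8 were lower with Aβ42 and 5 with 3D6. *B3gat3* had -0.20 (SE 0.099) and -0.034 (SE 0.090), and *Ext1* -0.010 (SE 0.13) and 0.16 (SE 0.092). The median log2 fold changes of the dystroglycan glycosylation and heparan sulfate genes were -0.034 and -0.021 with Aβ42 and 0.063 and 0.033 with 3D6.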

How the data were processed

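RNA from the left ventricle of 30 male mice was sequenced as TruSeq Stranded Total RNA libraries. Reads were trimmed and mapped to the GENCODE vM24 mouse transcriptome with Salmon, whose version is not given in the sources used here. The peptide table deposited by the authors holds counts per Ensembl gene, as whole numbers, and how these were summed from transcripts is not given in the sources used here. The antibody table deposited by the authors holds estimated counts for transcripts. Both tables are without normalization and on GRCm38. Estimated counts were summed to genes through GENCODE vM21 of the same build, which lists 99.21% of the 142647 transcripts, and rounded. 1 column could not be matched to a labelled sample and was left out.

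Each study was fitted alone with edgeR 4.0.16 in R 4.3.3: TMM scaling, genes averaging 10 or more counts per heart, the robust quasi-likelihood test, two-sided, and Benjamini-Hochberg adjustment over all genes tested. Log2 CPM used a prior count of 2. Within-group correlations used 100000 permutations within groups in numpy 2.4.6, so the smallest p is 1e-05. The 42 and 56 pairs of hearts within groups differed by more than sampling noise (chi-square per degree of freedom at least 3.36 and 3.39). The labels do not give a batch or date, but the antibody hearts differed between mice 3 to 12 and 15 to 24. Scripts were checked on simulated data.

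The members, the lists and the tests were chosen with earlier results of these data known. Named genes are the members, 7 fixed pathway genes, the gene with the smallest p in each list and study, and the 5 genes most like each of 5 members. Some genes that this rule names are not reported here. As alternatives, the fits were repeated with DESeq2 1.42.0 and with limma 3.58.1 (voom), other scalings and filters, covariates, other lengths and leaving out each heart. The GC index as covariate or regressed out, the mouse-number set as covariate or with its means subtracted, and the longest-transcript length, were chosen after seeing the data.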

Additional observations from a re-analysis of the deposited data

Results flagged for a closer look

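The values of each member, and of laminin shares, in each group were checked for a single heart far from the others. These 56 sets of values come from the same hearts and are not independent of each other. A gap to the nearest heart too large for the set's range by Dixon's criterion was found in 7, where chance gives about 1 in 20. In the peptide study these were the highest Aβ42 hearts for *Hspg2* (645 CPM, Abeta42_3452) and *Lama5* (285 CPM, Abeta42_3456), and the highest ScrAβ42 heart for *Lama4* (105 CPM), *Lamc1* (315 CPM) and *Nid1* (263 CPM). The last 3 values came from 1 animal, ScrAbeta42_3448, which also had the lowest mitochondrial percent of its group (13.8%). Without Abeta42_3452, the *Hspg2* difference was -0.31 on the log2 scale and 4 genes passed in edgeR, against 0 with it. In the antibody study the highest control hearts stood apart for *Lama4* (73.5 CPM, mouse 11) and *Lamb2* (446 CPM, mouse 22).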

How the results depend on the processing

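Of 190 member fold changes under other settings, 13 reversed and 1 passed the threshold (*Hspg2*, DESeq2). Genes called in the peptide study were 12 with DESeq2, 1 with no filter and 0 to 4 with 1 heart left out (4 without Abeta42_3452, 1 without ScrAbeta42_3448), against 0 in the main analysis, and members called were 1 with DESeq2. In the antibody study 1 gene passed with the mitochondrial covariate. The atrial covariate reversed *Agrn* (0.065), *Lama4* (-0.18) and *Lama5* (0.025) with Aβ42 and *Lama5* (0.064) with 3D6. With 3D6, limma-voom reversed *Lama5* (0.026), the mitochondrial covariate *Agrn* (0.13), *Lama2* (-0.0081), *Lama5* (0.10) and *Lamb2* (0.019), and the GC index *Agrn* (0.073), *Lama5* (0.084) and *Lamb2* (0.0061). With the mouse-number set as a covariate, added after seeing the data, *Lama5* with 3D6 was at 0.00043, the other 9 members kept their sign and 0 genes passed. Of 300 fits without 1 heart, 14 reversed: with Aβ42, *Agrn* ranged from -0.064 to 0.0091, *Lama4* from -0.036 to 0.18 and *Nid2* from -0.23 to 0.0018, and with 3D6, *Agrn* from -0.28 to 0.020, *Lama5* from -0.084 to 0.091, *Lamb1* from -0.17 to 4.1e-05, *Lamb2* from -0.048 to 0.037 and *Lamc1* from -0.095 to 0.030. The median r of member pairs in the peptide study was 0.08, and 0.51 with scaling to the total count. The cause of these changes was not tested. No paired analysis was run, since the groups compared share no mouse numbers. In the antibody study each 3D6 heart has a control heart with a neighbouring number, but the labels do not call these pairs.

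With 7 or 8 hearts a group, the 95% interval of a member's log2 fold change was narrowest for *Hspg2* with Aβ42 (-0.44 to -0.11) and widest for *Agrn* with 3D6 (-0.65 to 0.23). Whole tissue gives no cell of origin, and the α chain shares depend on the length chosen.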
